A study of Mus musculus with 7 samples.

Results

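Synaptic vesicle and presynaptic genes were followed from dividing progenitors to neurons in the embryonic mouse dorsal forebrain. The 30 genes were chosen by symbol, and 29 of them have a row among the 21862 genes of the count matrix. Pclo has none. Single cells of CD-1 mouse embryos were captured with Drop-seq (protocol 3.1) after papain dissociation of dorsal forebrain, and each mRNA molecule was counted once through its unique molecular identifier (UMI). The 7 samples covered E10.5, E12.5, E14.5 (2 samples), E15.5, E16.5 and E18.5, all of 1 strain and with no treatment named, and the authors gave every cell 1 of 19 number labels (0 to 18) without names. The labels do not say whether a sample held 1 litter or several, so the p-values below cover only differences among these 7 samples, and those may be technical.

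Neurotransmitter is released when a synaptic vesicle fuses with the presynaptic membrane. Fusion is driven by SNARE proteins (Vamp2 on the vesicle, Stx1a and Snap25 on the membrane), triggered by calcium through synaptotagmins, and held or eased by complexins. Active zone proteins such as Rims1, Bsn, Erc2, Unc13a and Ppfia2 dock and prime vesicles, and many of these genes are switched on in young cortical neurons well before synapses form.

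Each sample held 387 to 3235 cells and 1519473 to 6638760 UMIs, with medians of 1645 to 3352 UMIs per cell. The median mitochondrial share per sample ranged from 2.25% to 7.53% and was highest at E18.5. A total of 13 cells with over 2% haemoglobin UMIs were set aside, and 4 barcodes occurred in more than 1 library (13 cells). Exons of several members, among them Rab3a, Syn1, Syn2, Ppfia2, Unc13a, Nrxn2, Syp and Syt4, overlap a gene on the other strand, and the counted strand is not given in the sources used here, so reads of such partners cannot be told apart.

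The number labels were checked against marker lists that hold none of the 30 genes. Labels 1, 3, 6 and 10 were apical progenitor-like, with 14, 14, 5 and 17 of 18 markers at least 2-fold above other cells. Label 12 had 10 of these markers but 3 oligodendrocyte-lineage markers among its 10 leading genes, so it stayed unnamed and was summed with the other progenitor labels. Labels 4 and 7 were intermediate progenitor-like (14 of 14 markers each), labels 2, 5, 9 and 11 projection neuron-like (12, 9, 9 and 15 of 26), label 8 interneuron-like (15 of 17) and label 13 Cajal-Retzius-like (14 of 14). Label 0 carried 10 projection neuron and 6 intermediate progenitor markers and stayed unnamed. The authors made the labels from these same counts, so differences between labels are given as descriptions with no test, and tests are kept for trends over embryonic day within a label group. Levels are CPM (counts scaled to 1000000 UMIs) of a label group within 1 sample, where it had at least 20 cells.

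The members held 51374 of 27727786 UMIs in the cells kept, or 0.185%. Syt11 alone gave 10113 UMIs, 19.7% of that sum, followed by Syt4 with 4614, Cplx2 with 4575, Ppfia2 with 3494, Rab3c with 3361 and Rab3a with 3269. Another 7 members (Snap25, Erc2, Syt1, Nrxn2, Vamp2, Sv2a and Syn2) had 1070 to 2695 UMIs. The rest were sparse, and Vamp1 with 52 UMIs and Atp6v0c with 20 were too sparse to place, so the 27 members with at least 100 UMIs are described below.

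The summed share of the members was higher at each step from progenitors to neurons. It was 0.0829 ± 0.0271% of UMIs in the progenitor labels (SD, n = 7 samples), 0.107 ± 0.0171% in the intermediate progenitor-like labels (n = 7), 0.213 ± 0.0333% in label 0 (n = 6) and 0.355 ± 0.0382% in the projection neuron-like labels (n = 6). The interneuron-like label reached 0.385 ± 0.132% (n = 7) and the Cajal-Retzius-like label 0.258 ± 0.116% (n = 5). Most of the progenitor share was Syt11: without it, the progenitor mean was 0.0265% and that of the projection neuron-like labels 0.321%. The lowest projection neuron sample, at 0.307%, lay above the highest label 0 sample, at 0.265%.

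**Figure D1:**
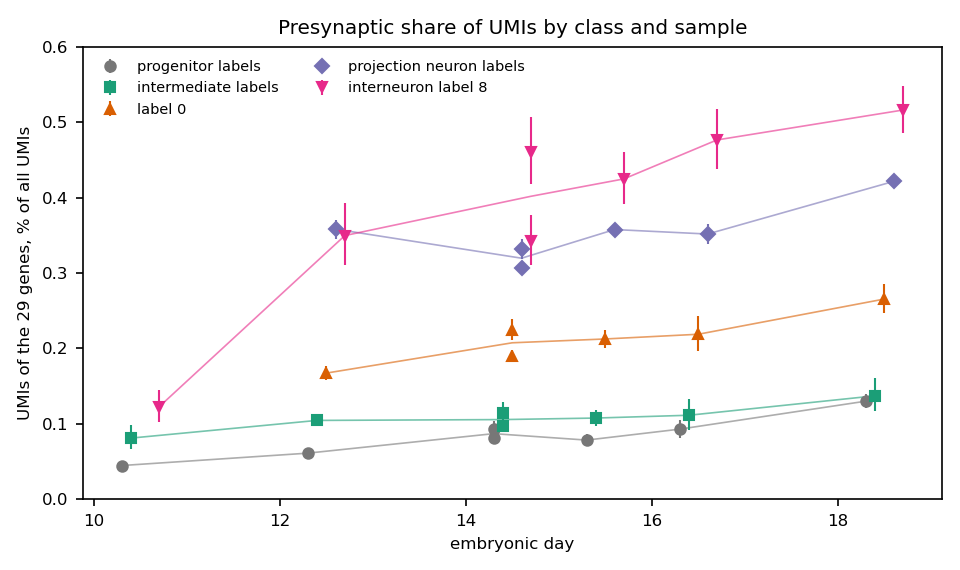
Percent of all UMIs that belong to the 29 genes, by label group (vertical axis) and embryonic day of the sample (horizontal axis), with exact Clopper-Pearson 95% intervals that cover counting error only and lines through the stage means. Projection neuron-like samples lie between 0.307% and 0.422%, while the interneuron-like label starts at 0.122% at E10.5 and reaches 0.516% at E18.5.

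Cells of the groups differ in depth, so the number of members with at least 1 UMI was also counted after thinning every cell to 1000 UMIs, which left out 1782 shallower cells. A thinned cell of the progenitor labels held 0.585 members on average (1.10 unthinned), one of the intermediate labels 0.844 (1.55), one of label 0 1.65 (2.69), one of label 2 2.36 (4.36), one of label 5 2.97 (6.52) and one of the interneuron-like label 3.06 (4.63). The order from progenitors to neurons was the same with and without thinning for these 5 labels or groups of the cortical series, whereas the interneuron-like label lay above label 5 only after thinning. Free RNA in droplets can give UMIs in cells that do not express a gene, so labels 16 to 18, whose leading genes are endothelial, microglial and mural, served as background: from E12.5 on, 83 of their 360475 UMIs were member UMIs (0.0230%), and a thinned cell held 0.176 members. Syngr1 gave 26 of those 83 UMIs. Without Syt11 and Syngr1 the background was 0.0153% and the progenitor mean 0.0257%, with samples from 0.0171% to 0.0445%. Stx1a gave 9 of the 83 UMIs, or 24.97 CPM. Its mean was lower in label 0 (12.3 CPM) and in the interneuron-like label (13.9 CPM). In label 5 its mean was 53.4 CPM, with samples from 25.7 to 129 CPM.

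The order of onset was read from each member's mean CPM, expressed as a percentage of its own highest label group, with 50% as the mark. The interneuron-like label and label 13 counted among the neuron labels. Syt11 was first at the mark already in the progenitor labels, and Cplx2 in the intermediate labels. A set of 6 members reached it in label 0: the vesicle SNARE Vamp2, the vesicle membrane protein Syp, the vesicle GTPase Rab3a, and the active zone genes Bsn, Unc13a and Ppfia2. The other 19 reached it only in a neuron label. At a mark of 25% the counts were 2, 3, 13 and 9, with Rims2 joining Syt11, and Syp and Unc13a joining Cplx2. With samples from E14.5 on alone, the counts were again 1, 1, 6 and 19, with Rab3c in and Vamp2 out of the label 0 set.

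The 19 members that first reached the mark in a neuron label were not alike in label 0. Of these, 9 were still under 25% of their highest level there: the calcium sensor Syt1 (4.85%), its relative Syt4 (22.5%), the membrane SNARE Stx1a (22.9%), the complexin Cplx1 (11.2%), the vesicle glycoprotein Sv2b (20.9%), the synuclein Sncb (4.71%), the neurexin Nrxn3 (0.420%), the active zone organiser Rims1 (18.5%) and Dnm1 (20.6%), the dynamin that cuts endocytic vesicles free. The other 10 lay between 25.6% and 47.6% in label 0. They were Snap25 (27.9%), the synapsins Syn1 (36.9%) and Syn2 (47.6%), Rab3c (46.0%), Sv2a (25.6%), Nrxn2 (32.7%), Rims2 (40.7%), Erc2 (32.4%), and the synaptogyrins Syngr1 (41.7%) and Syngr3 (36.4%). Of the complexins, Cplx2 reached either mark before Cplx1, also from E14.5 on. Rims2 stood at 33.8% already in the progenitor labels and Rims1 at 9.14%. Of the 19, Syt1, Nrxn2, Nrxn3 and Rims2 were highest in the interneuron-like label, and Syn2, Erc2 and Syngr3 in label 13. Their percentages in label 0 are thus not relative to a projection neuron-like label. Nrxn3 stayed between 0.0457% and 1.85% in labels 2, 5, 9 and 11. In those labels Rims2 was at 16.8% to 35.6%, under its label 0 level. Syn2 was at 33.1%, 31.6% and 34.5% in labels 2, 5 and 11 and at 65.2% in label 9.

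**Figure D2:**
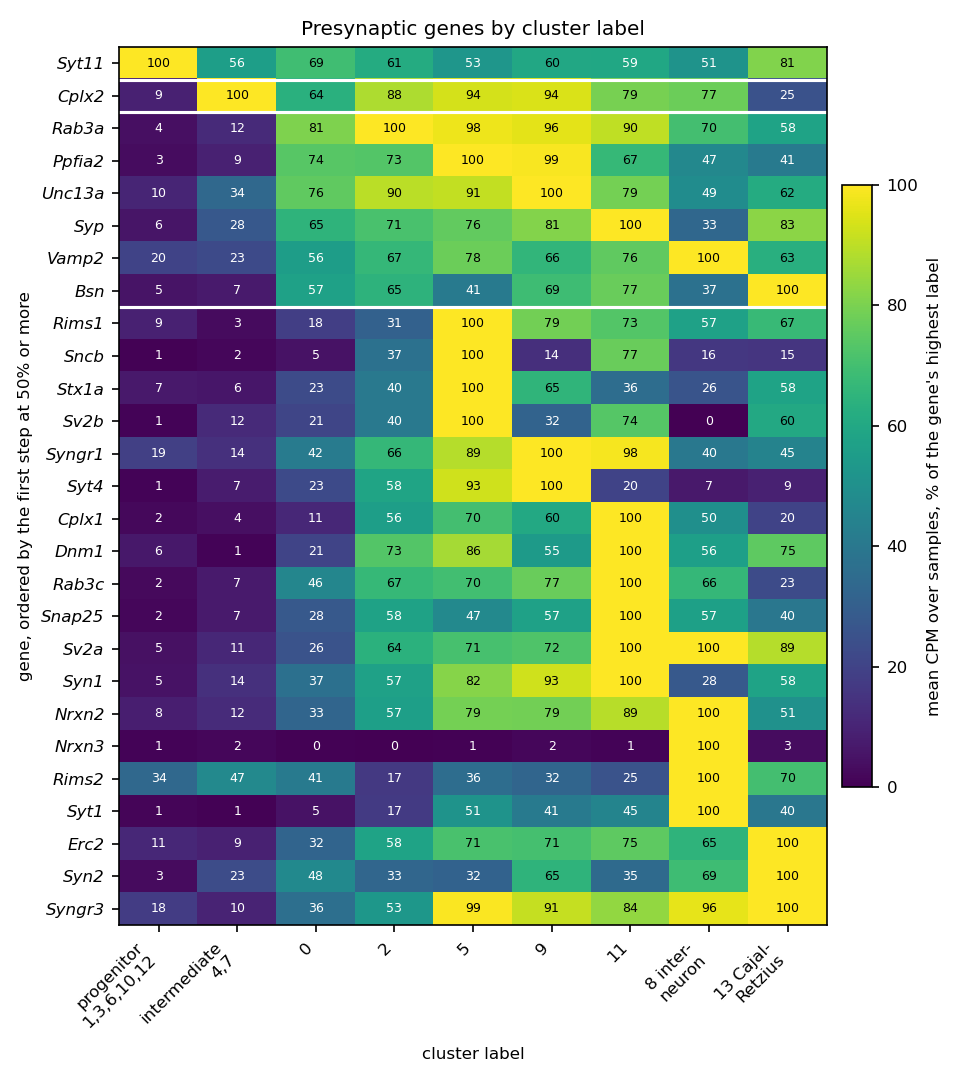
Mean CPM of 27 members (rows) in 9 label groups (columns), each as a percentage of the gene's highest group, with white lines between members that first reach 50% in progenitor labels, in intermediate labels, in label 0 and in neuron labels. Rows of the last block are mostly dark in the progenitor and intermediate columns and brighten in a neuron label. Rims2 is the exception, at 33.8% in progenitor and 47.1% in intermediate labels and at 16.8% in label 2.

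Sequence around the RefSeq gene starts of the members was searched for letters of regulatory motifs. RE1, the element bound by the repressor REST in cells that are not neurons, was searched on both strands by the 17 fixed letters of its consensus, and the E-box CAGCTG, a form bound by proneural bHLH factors that reads the same on both strands, was searched exactly. RefSeq (GRCm38.p6) gave 34 windows of 300 bases (250 before and 50 after a start) for 24 of the 30 members. Syn1, the synapsin that tethers vesicles to each other and to actin, was the 1 member with RE1 within 1 mismatch and is shown for it. Its level was 5.02% of its highest in progenitor labels, 36.9% in label 0, 57.0% in label 2 and 100% in label 11. In the interneuron-like label it was 28.1%, under that of label 0. Stx1a, the membrane SNARE, is shown for its E-box 33 bases before the start. It was at 6.12% of its highest level in intermediate labels, 22.9% in label 0, 40.2% in label 2 and 100% in label 5. In labels 9 and 11 it was at 65.4% and 35.6%, and in the interneuron-like label at 25.97%. Capitals mark RE1 in Syn1, its mismatched and free letters included, and CAGCTG in Stx1a, and for Syn1 the bases that GENCODE places in an exon are left out.
Syn1, chrX:20921005-20921168, minus strand: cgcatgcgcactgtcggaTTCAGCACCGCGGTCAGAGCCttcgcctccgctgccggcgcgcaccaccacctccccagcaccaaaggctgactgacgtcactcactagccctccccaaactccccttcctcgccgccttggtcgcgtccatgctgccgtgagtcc
Stx1a, chr5:135023232-135023481, plus strand: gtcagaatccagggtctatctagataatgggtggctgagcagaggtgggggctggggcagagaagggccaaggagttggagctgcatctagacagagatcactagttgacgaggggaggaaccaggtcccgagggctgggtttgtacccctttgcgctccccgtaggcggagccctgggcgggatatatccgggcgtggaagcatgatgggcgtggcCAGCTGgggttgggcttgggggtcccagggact
The Syn1 match lay at chrX:20921130-20921150, 232 to 212 bases before the start. A match within 1 mismatch occurred in 9 of 32851 windows of all genes (0.0274%). Allowing 4 mismatches, which 1.46% of all windows satisfied, added Unc13a, the vesicle priming factor, at chr8:71671727-71671747 (10 to 30 bases after the start, on the strand opposite to the gene).
Unc13a site, capitals for the matching fixed letters: TTCAGCACCggGGgCgcggaC
CAGCTG stood in 8 of the 34 member windows (23.5%), against 16.3% of all windows: in those of Sv2a, Cplx1, Stx1a, Rab3a, Bsn, Syt1, Cplx2 and Rab3c. These matches describe letters only.

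Between the progenitor and intermediate labels few members differed in the same direction in every sample. Syt4, Snap25, Syp, Cplx2 and Ppfia2, 5 of 27, were higher in the intermediate labels in every one of 7 samples, and Syt11 was lower in every one, where 6.53% of all 11457 genes with at least 100 UMIs were higher and 9.79% lower throughout. Cplx2, a complexin that clamps and helps vesicle fusion (chr13:54371349-54383917), differed with the least spread of the large ratios. Its level in the intermediate labels was 333 CPM at E10.5, then 404 by E12.5, 226 and 190 in the E14.5 pair, 258, 266 and 495 on the later days E15.5, E16.5 and E18.5, against 20.4 to 44.6 CPM in the progenitor labels, so the groups did not overlap. The mean log2 ratio was 3.37 ± 0.37 (SD, n = 7). Syt4, a synaptotagmin with little calcium binding, was at 15.9 to 66.6 CPM in the intermediate labels and at 0 to 15.1 CPM in the progenitor labels.

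The step from the intermediate labels to label 0 touched most members. In all 6 samples 16 of 27 were higher in label 0, against 10.4% of all genes, and the median member ratio was 1.46 (log2). The mean ratio was 2.95 ± 0.79 for Ppfia2, which as liprin-alpha scaffolds the active zone, and 2.73 ± 0.94 and 2.62 ± 1.05 for the vesicle GTPases Rab3a and Rab3c, with as few as 1 count per intermediate sample. Syt1 had no count in 4 of these 6 samples of the intermediate labels, so no ratio is given. Cplx2 and Nrxn3 were lower in label 0 in every sample, where 10.4% of all genes were lower throughout. Nrxn3 had 0 to 3 counts per sample in label 0. For Cplx2 the ratio was -0.56 ± 0.42 (log2, SD, n = 6). Its mean over all samples was 311 CPM in the intermediate labels, with 63.7% of that in label 0, 87.7% in label 2, 93.7% in label 5 and 94.2% in label 9. From E14.5 on, label 9 had the highest mean (293 CPM), with 99.5% of it in label 5 and 98.2% in the intermediate labels.

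From label 0 to the projection neuron-like labels 18 of 27 members were higher in every one of 6 samples and 0 were lower, against 12.1% and 10.6% of all genes, with a median member ratio of 1.03 (log2). The calcium sensor Syt1 (chr10:108497650-109010982) had the largest mean ratio among members with over 1000 UMIs. It stood at 35.7, 12.6, 16.2, 23.5, 32.5 and 32.1 CPM in label 0 (E12.5, both E14.5 samples, E15.5, E16.5, E18.5) and at 196, 155, 171, 215, 259 and 334 CPM in the projection neuron-like labels of the same samples. The log2 ratio was 3.12 ± 0.39, and the highest label 0 sample lay well under the lowest neuron sample. Cplx1, the complexin of mature synapses, was at 0 to 19.9 CPM in label 0 and at 42.2 to 88.2 CPM in the projection neuron-like labels. Sncb, the synuclein of presynaptic terminals, had 0 to 3 counts per sample in label 0 and stood at 22.6 to 87.9 CPM in the neurons. Rab3a, Bsn, Unc13a and Syp had small mean ratios here (log2 of 0.23 ± 0.19, 0.18 ± 0.86, 0.08 ± 0.36 and 0.33 ± 0.39). Bsn spread widely, with 3 samples higher and 3 lower. All 4 had reached the 50% mark in label 0, which rests on the same CPM values, so these readings are not independent. Syt11, a synaptotagmin that does not sense calcium, was lower in 5 of 6 samples (-0.24 ± 0.21).

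Members differed in which projection neuron-like label, if any, had their highest mean: 7 in label 11 (Snap25, Syp, Syn1, Rab3c, Cplx1, Sv2a and Dnm1), 5 in label 5 (Stx1a, Sv2b, Sncb, Rims1 and Ppfia2), 3 in label 9 (Syt4, Unc13a and Syngr1) and Rab3a in label 2. These means cover unlike stages: label 2 ran from E12.5 to E15.5, label 11 from E14.5 to E16.5, and labels 5 and 9 up to E18.5. With samples from E14.5 on, Unc13a was highest in label 2, Sv2a in the interneuron-like label and Cplx2 in label 9. Label 11 stood above label 5 in every one of 4 shared samples for Snap25, Syn1, Rab3c and Bsn, and below it for Syt4, Stx1a and Ppfia2, 4 and 3 of 27 members against 9.41% and 9.23% of all genes. Snap25, the membrane SNARE cleaved by botulinum toxin, was at 266, 397, 421 and 480 CPM in label 11 (E14.5, both samples, E15.5, E16.5) and at 212, 190, 171 and 144 CPM in label 5 of those samples. Syt4 ran the opposite way, with 199, 94.4, 109 and 92.8 CPM in label 11 and 694, 373, 328 and 608 CPM in label 5. In these samples neither gene's values overlapped between the labels. Label 5 lay above label 2 in every one of 3 samples for 10 of 27 members (10.9% of all genes) and below it for 0 (12.8%), and label 11 lay above label 2 for 14 (16.3%) and below it for Syt4 alone (17.1%). Label 9 stood above label 5 in every one of 4 samples for Rab3c and Nrxn3 (10.7% of all genes) and below it for Sv2b and Sncb (8.25%), which had 0 to 5 and 0 to 10 counts per sample in label 9. Against label 2 it had 2 shared samples, in which 16 members were higher in both and 3 lower, against 26.7% and 25.1% of all genes.

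The interneuron-like label used another mix of the same families. Compared with the projection neuron-like labels in 6 shared samples, 5 of 27 members were higher in every sample and 5 lower, against 5.11% and 9.16% of all genes. The members higher in it were Syt1 (1.44 ± 0.27, log2), the vesicle protein Sv2a (0.59 ± 0.27), the adhesion receptors Nrxn2 (0.53 ± 0.35) and Nrxn3, and Rims2 (1.99 ± 1.11). Those lower were Syt4 (-3.37 ± 0.78), Stx1a (-0.93 ± 0.58), Syp (-1.20 ± 0.65), Ppfia2 (-0.75 ± 0.29) and Sv2b, which had no count in the label and is given by a bound below. Label 5 alone, the label of most late projection neurons, gave a like picture in 5 samples: the same 5 members plus Vamp2 (0.69 ± 0.63) and Syn2 (1.82 ± 1.41) were higher in interneurons throughout (6.99% of all genes), and Syt4, Stx1a, Syn1 (-1.53 ± 0.41), Ppfia2 and Sv2b, again with no count, were lower throughout (7.1%). Nrxn3 was at 579 to 1029 CPM in these interneuron samples and at 1.36 to 14.6 CPM, from 1 to 29 counts, in the projection neuron-like labels. It is itself among the 10 leading genes of label 8, so its level there describes how the label was made.

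The paralogs Sv2a and Sv2b, both vesicle glycoproteins, thus went apart. Sv2b had no count among the 858843 UMIs of the interneuron-like label, where 3 counts would be 3.49 CPM, and the projection neuron-like labels averaged 14.4 CPM, so the level was at least 4.13-fold lower with the floor taken over the group. Single samples cannot show this: 3 counts stood for 14.5 to 36.9 CPM in them, and the projection neuron-like levels were 8.14 to 29.7 CPM. The group floor also takes in the E10.5 sample (106442 UMIs), which has no projection neuron-like sample beside it. Over the shared samples alone the floor would be higher and the bound smaller. Sv2a was at 28.2 CPM at E10.5 and between 130 and 189 CPM in the other 6 interneuron samples. Syt4 lay between 18.8 and 96.6 CPM in the interneuron-like label and between 248 and 768 CPM in the projection neuron-like labels, with no overlap.

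The Cajal-Retzius-like label 13 held the highest mean of Syn2, Bsn, Erc2 and Syngr3, with wide spread. Compared with the projection neuron-like labels in 4 shared samples, Rims2 was higher in every one (1.09 ± 0.45; 8.96% of all genes) and Syt4, Rab3c, Cplx1, Cplx2, Sncb, Ppfia2 and Syngr1 were lower in every one (14.4%). Cplx2 differed by -2.21 ± 0.42 and Rab3c by -1.54 ± 1.03 (log2). Erc2, the ELKS/CAST scaffold of the active zone, was at 85.3 CPM at E10.5, 124 at E12.5, 153 at E14.5, 326 (E15.5) and 811 (E18.5). Syn2, a synapsin, was at 4.49, 0, 105, 223 and 399 CPM in the same samples. Both were highest at E18.5, and these samples held 23 to 66 cells each, with no test made on this label. From E10.5 to E18.5 the summed Cajal-Retzius markers of label 13 went from 3173 to 10571 CPM, the interneuron markers from 296 to 763, the intermediate progenitor markers from 3990 to 1210 and the apical progenitor markers from 1786 to 392. Their part in these levels was not tested.

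Trends over embryonic day within the label groups were tested with edgeR's quasi-likelihood test on summed counts. A slope of 1 is a doubling per day, and adjusted p-values are Benjamini-Hochberg values over all genes tested. Of 29 members, 26 passed the filter on low counts in the projection neuron-like labels, 19 in label 0, 14 in the interneuron-like label and 8 in the progenitor labels, so each count below covers only those.

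**Figure D3:**
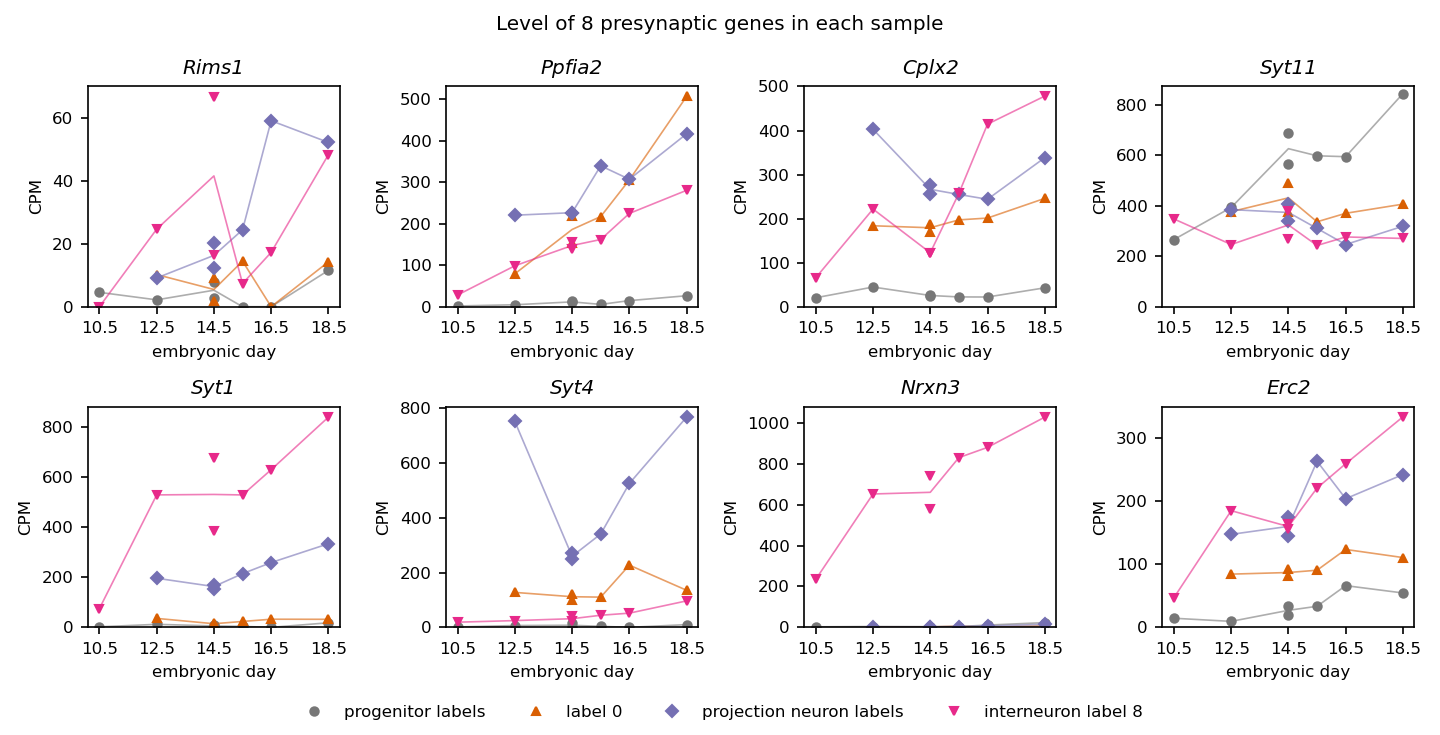
CPM per sample of 8 members over embryonic day in progenitor labels, label 0, projection neuron-like labels and the interneuron-like label 8. Rims1 in projection neuron-like labels goes from 9.13 CPM at E12.5 to 52.2 CPM at E18.5, and Ppfia2 in label 0 from 79.1 to 506 CPM.

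In the projection neuron-like labels 1 of 26 members rose and 0 fell, where 2.05% of 9712 genes rose and 1.03% fell (3.08% called). Rims1 (chr1:22286251-22805994), which links vesicles and calcium channels at the active zone, was at 9.13 CPM at E12.5, 12.2 and 20.4 in the E14.5 pair, 24.4, 59.1 and 52.2 on the later days E15.5, E16.5 and E18.5. The 2 latest samples were the highest. The slope was 0.49 (log2 per day, SE 0.0996, n = 6 samples), a 1.40-fold rise per day, with an adjusted p of 0.0185 in edgeR's quasi-likelihood test. A further 9 members had an unadjusted p under 0.05 and did not pass adjustment, among them Ppfia2 at 0.18 (adjusted p = 0.0708 in edgeR). With Rims1 this made 10 of 26 members, against 1643 of all 9712 genes in the same edgeR test. The median member slope was 0.07, with 18 slopes above 0 and 8 below. Over all genes tested, 4832 slopes lay above 0 and 4880 below. Label 2 made up 91.8% of these cells at E12.5 and 0.584% at E18.5, and label 5 went from 3.23% to 65.7%, while the median mitochondrial share was lowest at E14.5 (2.35%) and highest at E18.5 (7.68%). With each of the 6 samples left out in turn Rims1 stayed called, with slopes of 0.43 to 0.78. Within label 5 alone the Rims1 slope was 0.32 (adjusted p = 0.543 in edgeR), and with cells of at most 5% mitochondrial UMIs it was 0.39 (adjusted p = 0.290 in edgeR). Leaving out E12.5 raised the count to 5 (Nrxn3, Rims1, Syngr3, Syt1 and Syt4 rising), and leaving out E18.5 gave 2 (Rims1 rising, Syn2 falling). Shares of all genes called in these fits are not given, so the counts show only that the number depends on the samples. The summed interneuron markers in these labels were at 28.5 CPM at E12.5, 68.9 and 54.3 in the E14.5 pair and 239 at E18.5, where Nrxn3, a leading gene of the interneuron-like label, was at 14.6 CPM. Their part in the Nrxn3 call was not tested.

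At E12.5 more members lay below all later projection neuron samples than above them all. Those above were a smaller part of the members than of all genes. At that stage, 10 of 27 members were lower than in every later projection neuron sample (Snap25, Stx1a, Syn1, Rab3c, Cplx1, Nrxn2, Rims1, Unc13a, Ppfia2 and Syngr1), against 24.4% of all genes, and 4 were higher than in every later one (Syn2, Cplx2, Sv2b and Sncb), against 20.4%. Syn2 was at 146 CPM at E12.5 and at 27.7 to 71.3 CPM afterwards. Syt4 (chr18:31437808-31447406) was high at both ends, with 752 CPM at E12.5, 271 and 248 in the E14.5 pair, 341, 526 and 768 on the later days E15.5, E16.5 and E18.5 (slope 0.07, adjusted p = 0.763 in edgeR). Within label 2 alone, Syt4 fell from 693 CPM at E12.5 to 225, 257 and 246 CPM, and Syn2 from 134 to 26.0, 13.5 and 19.3 CPM, and these were the 2 members called of 23 tested there by the same test, where 1.21% of 7006 genes were called.

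Label 0 gave 1 rising member of 19, where 0.857% of 7347 genes rose and 0.599% fell (1.46% called). Ppfia2 (chr10:106470339-106935952) was at 79.1 CPM at E12.5, 154 and 218 in the E14.5 pair, 217, 305 and 506 on the later days E15.5, E16.5 and E18.5. E12.5 was the lowest and E18.5 the highest. The slope was 0.44 (SE 0.0575, n = 6; adjusted p = 0.000604 in edgeR), a 1.36-fold rise per day. Across these samples the summed intermediate progenitor markers of label 0 went from 3090 to 1760 CPM between E12.5 and E18.5, and 3 of 14 were higher at E18.5; their part in the result was not tested. With cells of at most 5% mitochondrial UMIs only 4 of the 6 samples kept 20 cells, and the slope was 0.41 (adjusted p = 0.571 in edgeR).

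In the interneuron-like label 4 of 14 members rose and 0 fell, where 1.24% of 3379 genes rose and 0.621% fell (1.86% called), and the median member slope was 0.21. Ppfia2 was at 28.2 CPM at E10.5, then 98.5 by E12.5, 139 and 156 in the E14.5 pair, 162, 224 and 280 on the later days E15.5, E16.5 and E18.5 (slope 0.34, SE 0.0679, n = 7; adjusted p = 0.0103 in edgeR). Cplx2 was at 65.8, 222, 122, 122, 257, 414 and 478 CPM in the same order (0.34, SE 0.0719; adjusted p = 0.0184 in edgeR). Erc2 (chr14:27622428-28478537) was at 47.0, 185, 163, 156, 221, 259 and 333 CPM (0.28, SE 0.0652; adjusted p = 0.0313 in edgeR). In all 3 genes the E10.5 sample was the lowest and E18.5 the highest. Nrxn3 (chr12:88722876-90334935) was at 235, 653, 743, 579, 831, 881 and 1029 CPM (0.23, SE 0.0579; adjusted p = 0.0437 in edgeR), with the same ends. Syt1 at 0.29 (adjusted p = 0.0611 in edgeR) and Snap25 at 0.28 (0.0874) did not pass.

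All 4 calls were lost without the E10.5 sample, which had 30 cells. Slopes were then 0.32 for Cplx2 (adjusted p = 0.0610 in edgeR), 0.27 for Ppfia2 (0.148), 0.21 for Erc2 (0.337) and 0.14 for Nrxn3 (0.510). With cells of at most 5% mitochondrial UMIs, 3 of the 7 samples kept 20 cells, no call was left, and the Cplx2 slope was -0.43 (adjusted p = 0.843 in edgeR). The samples kept were E12.5 and the E14.5 pair, so this fit does not cover E10.5 or the days after E14.5. With all cells, too, Cplx2 was higher at E12.5 than in the E14.5 pair. Leaving out E15.5 left Cplx2 and Ppfia2, and leaving out E16.5 left Ppfia2. At E10.5 the summed 17 interneuron markers of the label were at 5703 CPM, against 6674 to 9876 CPM later, the 18 apical progenitor markers at 2208 against 544 to 1318 CPM, the 10 mesenchymal markers at 197 against 0 to 14.5 CPM, and the 11 hem and choroid markers at 714 against 0 to 65.3 CPM, with 7 of those 11 at 0 in every sample. Their part in the trends was not tested.

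**Figure D4:**
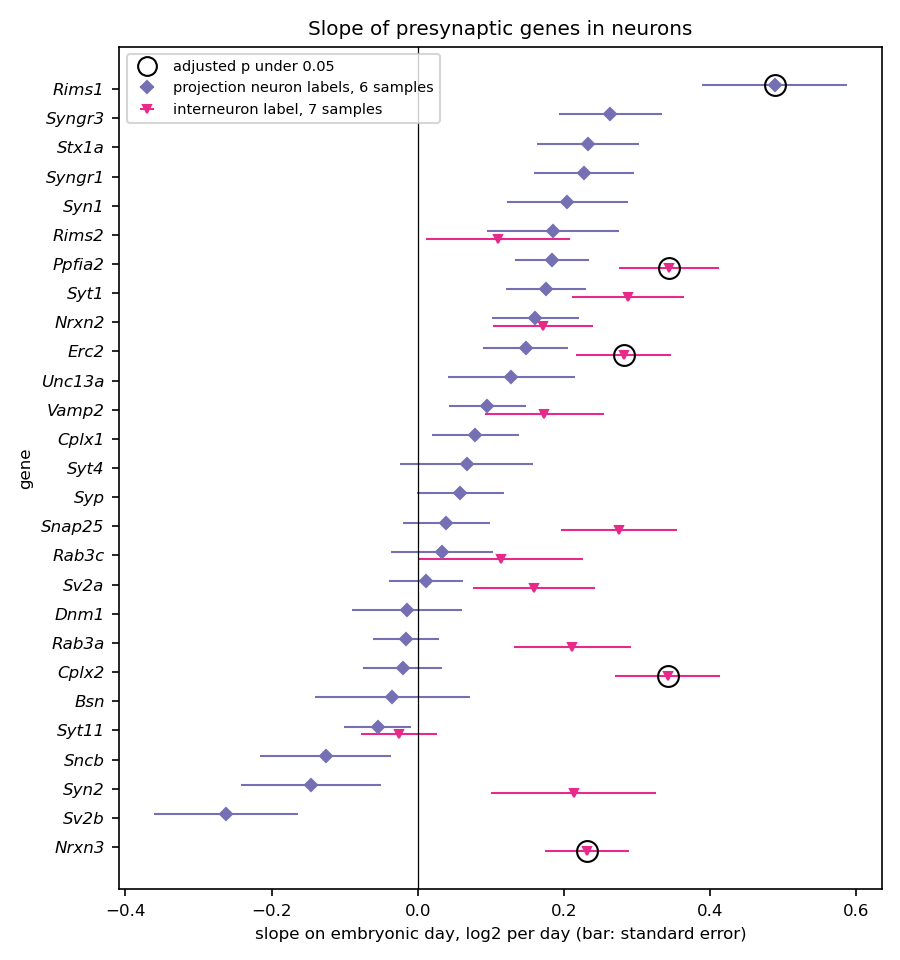
Slope on embryonic day (log2 per day, horizontal axis) with its standard error for each tested member in projection neuron-like labels (6 samples) and in the interneuron-like label (7 samples); circles mark adjusted p-values under 0.05. Cplx2 lies at -0.02 in the projection neuron-like labels and at 0.34 in the interneuron-like label.

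The difference between these trends was tested as an interaction over the 6 shared samples, with the sample as a block. It was called for 1 of 25 members, where 0.922% of 8570 genes were called (0.467% steeper in projection neurons, 0.455% steeper in interneurons). Only 14 members, Cplx2 among them, passed the low count filter in the interneuron-like label alone. For the rest, low counts in that label limit what this test could show. The Cplx2 slope was lower in the projection neuron-like labels by 0.31 (log2 per day; difference -0.31, SE 0.0742, adjusted p = 0.0109 in edgeR). Its projection neuron levels were 403 CPM at E12.5, 276 and 257 in the E14.5 pair, 255, 244 and 338 on the later days E15.5, E16.5 and E18.5 (slope -0.02, adjusted p = 0.885 in edgeR), highest at E12.5 where the interneuron level was 222 CPM. The call ended without the first E14.5 sample (-0.27, adjusted p = 0.0648 in edgeR), without E18.5 (-0.47, 0.0543), without the sample block (-0.35, 0.447) and in DESeq2 (-0.31, adjusted p = 0.423). With cells of at most 5% mitochondrial UMIs the difference was 0.021 (adjusted p = 1 in edgeR). For Ppfia2 and Erc2, which rose in interneurons and were not called in projection neurons, the differences were -0.08 (adjusted p = 0.959 in edgeR) and -0.08 (0.962), so a difference between the classes was not shown.

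In the progenitor labels 3 of 8 members rose and 0 fell, where 6.39% of 8392 genes rose and 2.92% fell (9.31% called). Syt11 (chr3:88744700-88775164) was at 266 CPM at E10.5, then 393 by E12.5, 566 and 686 in the E14.5 pair, 598, 594 and 844 on the later days E15.5, E16.5 and E18.5, lowest and highest at the ends (slope 0.20, SE 0.0353, n = 7; adjusted p = 0.00497 in edgeR). The other two were Erc2, between 9.44 and 66.0 CPM (0.31, SE 0.0742; adjusted p = 0.0204 in edgeR), and Vamp2, between 14.4 and 66.0 CPM (0.24, SE 0.0612; adjusted p = 0.0300 in edgeR). Label 6 made up 90.8% of these cells at E10.5 and label 12 made up 83.4% at E18.5, and the summed oligodendrocyte-lineage markers went from 31.6 to 1388 CPM. Without label 12, an alternative chosen after seeing the data, no call was left: Syt11 was then at 266, 393, 558, 639, 506, 452 and 441 CPM with a slope of 0.10 (adjusted p = 0.250 in edgeR), Erc2 had 0.30 (0.0986) and Vamp2 0.19 (0.297). Label 12 itself held 705 to 919 CPM of Syt11 in 4 samples, above the other progenitor labels in every one (0.73 ± 0.22, log2). Nrxn2 was higher there too, with means of 43.0 against 6.51 CPM, but with only 2, 4, 7 and 36 counts in label 12. Syt11 and Nrxn2 were 2 of 27 members, against 8.23% of all genes higher in every sample. Sv2a and Syngr3 were lower in every one, against 7.26%, but with 0 to 3 and 0 to 5 counts per sample in label 12, too few to give a ratio. Leaving out E18.5 left Syt11 alone, while leaving out the second E14.5 sample gave 6 called members and leaving out E15.5 gave 5. The share of all genes called in these fits is not given here, so the counts show nothing particular to the members.

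A wider list of 93 genes of the vesicle cycle and presynapse, of which 91 have a row, was taken through the same tests. In the projection neuron-like labels 1 of 75 rose (Dnm3, a dynamin that pinches off endocytic vesicles, 0.30, SE 0.0712; adjusted p = 0.0398 in edgeR) and 1 fell (Cask, a presynaptic scaffold that binds neurexins, -0.20, SE 0.0459; adjusted p = 0.0315 in edgeR). Dnm3 went from 39.9 CPM at E12.5 to 129 at E18.5 and Cask from 245 to 105 CPM. Of all 9712 genes tested in these labels, 199 rose and 100 fell. In label 0 1 of 61 rose, Cltb, a clathrin light chain (0.43, adjusted p = 0.00662 in edgeR), and in the interneuron-like label 2 of 40, among them Cltb (0.36, adjusted p = 0.0379 in edgeR). Of all genes, 63 of 7347 rose in label 0 and 42 of 3379 in the interneuron-like label. In the progenitor labels 6 of 47 rose and 0 fell, where 536 of all 8392 genes rose and 245 fell. Among the 6 was Atp6v0d1, a subunit of the proton pump that fills vesicles (0.16, adjusted p = 0.0372 in edgeR). No difference of slopes between the neuron classes was called among 75 of its genes by edgeR, with 8 at an unadjusted p under 0.05. Of all 8570 genes, 40 were called steeper in projection neurons and 39 in interneurons, and 586 had an unadjusted p under 0.05. Only 40 genes of the list passed the low count filter in the interneuron-like label alone, which limits what this test could show.

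The 2 samples of E14.5 give the only view of spread within a stage. Over the 27 members their absolute log2 difference had a median of 0.34 in the projection neuron-like labels, 0.39 in label 0, 0.51 in the interneuron-like label and 0.87 in the progenitor labels, where counts of most members were few.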

How the data were processed

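The authors deposited unnormalized UMI counts for every gene in every cell. Drop-seq protocol 3.1 is named in the labels' protocols, and the mm10 genome and Seurat 3.1.5 in the submitters' processing notes. The aligner, annotation and counted strand are not given in the sources used here. The members, the marker lists and the wider list were chosen with earlier results of these data known. The 12 libraries were matched to 7 samples by name, 1 of E14.5 by inference. Cells with over 2% haemoglobin UMIs were left out; 95 doublets called by Scrublet (0.926%, expected rate 5%) were left out only in an alternative. Counts were summed per label group and sample with at least 20 cells, and slopes on embryonic day were fitted in R 4.3.3 by edgeR 4.0.16 (TMM scaling after filterByExpr, glmQLFit, glmQLFTest, two-sided, Benjamini-Hochberg over all tested genes, threshold 0.05), a script tested on simulated data. The main fits take no block except the difference of slopes. Ratios between labels used log2 of CPM plus 1. Positions are from GENCODE vM21 (GRCm38). All members are named; values in every sample are given for members called in a neuron class and for those that illustrate a step, the latter chosen after their values were seen. Of the wider list, called genes with a mean of at least 50 CPM are named, except 1 that is not reported here. Alternatives were DESeq2 1.42.0, other size factors, no low count filter, each sample left out, doublets out, cells with at least 1000 UMIs or at most 5% mitochondrial UMIs, the E14.5 samples summed, stage rank, single labels, 1 E14.5 library left out, and, chosen after seeing the data, leaving out label 12 or the cells of a barcode with 11 G.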

Additional observations from a re-analysis of the deposited data

Results flagged for a closer look

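The slope of Cplx2 on embryonic day differed between the projection neuron-like labels and the interneuron-like label by -0.31 (log2 per day, projection minus interneuron, SE 0.0742). The interaction of class and day had an adjusted p of 0.0109 in edgeR over 6 samples, and this test of the difference singled the gene out. The call was lost in DESeq2, without the sample block, without the first E14.5 sample and without E18.5, so it depends on these choices.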

How the results depend on the processing

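The number of members called in the projection neuron-like labels (1) became 2 with DESeq2, 5 with no low count filter, 3 with stage rank, 2 in label 2 alone, 0 in label 5 alone and 0 with cells of at most 5% mitochondrial UMIs, and ranged from 1 to 5 with each sample left out. That mitochondrial limit also gave 0 in label 0, 0 in the interneuron-like label, 1 in the progenitor labels and 0 for the difference of slopes. By its construction it left 6 samples in the projection neuron-like labels, 4 in label 0, 3 in the interneuron-like label and 6 in the progenitor labels. Leaving out each sample gave 0 to 4 in the interneuron-like label (main count 4), 1 to 6 in the progenitor labels (main count 3) and 0 to 1 for the difference. The progenitor count was 5 with no low count filter, 6 with the E14.5 samples summed and 0 without label 12, and the difference count was 0 with DESeq2 and 0 with no sample block. The labels of E14.5 alone number replicates, so a paired analysis is the block of the sample shared by both classes; with no sample block the Cplx2 difference was -0.35 (adjusted p = 0.447 in edgeR). With the mitochondrial limit the Cplx2 slope was -0.43 in interneurons (adjusted p = 0.843 in edgeR) and the difference 0.021 (adjusted p = 1 in edgeR). Only E12.5 and the E14.5 pair of the interneuron samples were left there, so these values cover other stages than the main fits. Leaving out Syt11 lowered the member share to 0.0265% in progenitor labels, 0.0759% in intermediate labels and 0.174% in label 0. The 25% mark gave 2, 3, 13 and 9 onsets. The cause of these changes was not tested. Shares of all genes called in these alternatives are not set beside the counts, so the counts describe only their dependence on processing. Of the remaining values, 64 summary values and 123 single-gene values kept their direction and side of the threshold, and 38 single-gene values kept their direction but lost the call. Counts limit sparse members: a group of 30 cells resolved no level under 28.2 CPM (3 counts).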

Other observations

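Syngr1, a synaptogyrin of vesicle membranes, had 26 UMIs in the 32 cells of label 17, whose leading genes are those of microglia, or 213 CPM, with exact Clopper-Pearson bounds of 139 and 312 CPM at 95% for counting error. The UMIs came from 10 cells of 4 samples. Labels 16 and 18, of endothelial and mixed vascular leading genes, held 0, where the upper bounds of the same interval were 13.3 and 57.7 CPM. The gene was chosen after its values were seen, and its highest mean among the neural label groups was 43.3 CPM in label 9.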
